A study of Mus musculus with 15 samples.

Results

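Il9 encodes the cytokine for which Th9 cells, a type of helper T cell, are named. It is described here together with 5 transcription factor genes known for acting on it (Irf4, Batf, Batf3, Spi1 and Etv5) and with Il17rb, which encodes a subunit of the receptor for interleukin 25. These 7 genes were taken by symbol from the platform annotation of the array, out of 18194 genes with a symbol of their own, and all 7 were among the 15498 genes that passed the filter on low signals and were tested. Where a gene had several probe sets, the one with the highest average signal stands for it. Irf4 had 2 probe sets, Etv5 had 3, and the other 5 genes had 1 each.

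Gene expression was measured on 15 Affymetrix mouse arrays with RNA taken at day 4 from T helper cultures, 5 arrays for each of the Th9, Th17 and Th1 lineages. The T cells were naive CD4+ cells from spleen and lymph nodes of 3A9 mice, which carry a transgenic T cell receptor for hen egg lysozyme (HEL), and they were sorted with the clonotypic antibody 1G12. In PBAB cultures (2 arrays per lineage) they were stimulated on plates coated with antibodies to CD3 (1 µg/ml) and to CD28 (10 µg/ml). In HA cultures (2 arrays per lineage) the stimulus was HEL, at 1 µg/ml for Th9 and 2 µg/ml for Th17 and Th1, on wild type splenocytes that had received 30 Gy and acted as antigen-presenting cells (APC). One further array per lineage is labelled APC alone, and the labels do not say more about what it holds. Under both activations the Th9 cocktail was 10 ng/ml of IL-4 with 1 ng/ml of TGF-beta. The Th17 cocktail was 3 ng/ml of TGF-beta, 10 ng/ml of IL-6 and 5 ng/ml of IL-1alpha, with antibodies to IFN-gamma (20 µg/ml), IL-4 and IL-12 (10 µg/ml each). The Th1 cocktail was 10 ng/ml of IL-12 with 10 µg/ml of an antibody to IL-4. PBAB cultures differ from HA cultures in having no splenocytes, so the stimulus and the presence of other cells cannot be told apart. Th9 HA cultures had a lower HEL dose than Th17 and Th1 HA cultures. Lineage and dose therefore cannot be told apart where Th9 is compared under HA, or where its PBAB minus HA is set against that of another lineage. The sorted T cells carried a single receptor specificity, which limits them as a model of a natural T cell repertoire.

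Interleukin 9 acts on mast cells, epithelium and lymphocytes in allergic inflammation and in the defence against worms. Naive T cells are known to switch Il9 on when IL-4, through STAT6, and TGF-beta act together with signals from the T cell receptor and the IL-2 receptor, and mouse Th17 cultures are also known to make IL-9. IRF4 binds DNA poorly alone and is recruited by a BATF protein paired with a Jun protein, PU.1 (encoded by Spi1) and ETV5 belong to the ETS family, and IL-25 acting through IL-17RB is known to raise IL-9 in mouse T cells.

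The promoter of Il9 is shown because it is where the factors described here are known to act, and that of Il17rb because it was the only other one that held the letters bound by AP-1 proteins, the family of BATF. Promoters were found for 6 of the 7 genes in RefSeq's table (GRCm38.p6). The 250 bases before the start of Il9 lie at chr13:56482258-56482507 on the minus strand, and those of Il17rb at chr14:30008897-30009146, also on the minus strand. Capitals mark matches to the STAT6 letters (TTC and GAA with any 4 bases between them), TGANTCA (AP-1) and GGAAG, searched on both strands. GGAAG holds GGAA, the core bound by ETS factors, with a G after it. GGAA without that G was not searched and can occur elsewhere in these windows.
Il9: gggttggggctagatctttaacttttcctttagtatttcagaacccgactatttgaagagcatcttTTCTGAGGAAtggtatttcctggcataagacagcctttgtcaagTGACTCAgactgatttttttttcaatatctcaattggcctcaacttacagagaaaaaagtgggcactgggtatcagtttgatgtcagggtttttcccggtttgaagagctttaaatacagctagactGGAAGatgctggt
Il17rb: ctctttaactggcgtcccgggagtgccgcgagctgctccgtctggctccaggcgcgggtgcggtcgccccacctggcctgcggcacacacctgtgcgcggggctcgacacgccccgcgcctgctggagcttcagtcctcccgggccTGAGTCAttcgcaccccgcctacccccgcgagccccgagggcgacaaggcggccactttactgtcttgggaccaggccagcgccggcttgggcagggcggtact

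Read 5′ to 3′, the Il9 window held 1 STAT6 match at positions -184 to -175 from the start, 1 AP-1 match at -140 to -134 and 1 GGAAG match at -13 to -9. These 3 matches did not overlap. The Il17rb window held 1 AP-1 match at -104 to -98 and none of the other letters. Over all 32851 promoter windows of this length in the table, 6.75% held the AP-1 letters, 5.85% the STAT6 letters and 64.1% GGAAG. No window of the 6 genes held the repeat bound by IRF factors (GAAA, any 2 bases, GAAA), which 2.98% of all windows held. None held either joint letters of AP-1 and IRF, which are TTTC and any 4 bases before the AP-1 letters (0.0974% of all windows) or GAAA directly before them (0.1%), so that both contain the AP-1 letters. GGAAG matched 2 times upstream of Batf, 3 times upstream of Batf3 and 2 times upstream of one of both starts listed for Etv5, and not upstream of Irf4. A match of letters shows neither binding nor a cause of the values that follow.

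Levels are log2 values of RMA, a method that corrects background, normalises between arrays and summarises the probes of a set, and every difference is on this log2 scale. A difference is called when its adjusted p, from limma with Benjamini-Hochberg adjustment over all 15498 genes, is under 0.05. A signal below 5.07, the filter threshold, is not told from background here, and no fold is given against a group whose mean is near or below it. A log2 difference against such a group is the fitted difference in signal and is no measured ratio of RNA. Standard errors are given after ±, and every group of activated cells has 2 arrays. The labels call the 2 arrays of a group biological replicates and do not name their animals or cultures, so a p-value here speaks of the spread between these samples alone. The distributions were not equal over all 15 arrays: the range between the quartiles was 3.02 to 3.48 in PBAB and 3.11 to 3.48 in HA arrays, against 2.02 to 2.09 in APC alone. Array medians were 5.45 to 5.54 in PBAB and 5.45 to 5.52 in HA arrays, against 5.89 to 5.93 in APC alone. A level near the median in APC alone, though above 5.07, is thus not shown to be expression above that of activated cultures. The actin probe set at the 3′ end exceeded that at the 5′ end by 0.124 to 0.277 in PBAB arrays, 0.0453 to 0.109 in HA arrays and 0.736 to 0.994 in APC alone. The mean of 9 T cell markers was 10.1 to 10.8 in PBAB, 9.94 to 10.5 in HA and 6.58 to 7.80 in APC alone, and the mean of 12 macrophage markers was 4.66 to 5.11 in PBAB, 5.03 to 6.81 in HA and 9.04 to 9.38 in APC alone. Of these 12 markers, 3 to 6 were above 5.07 in PBAB, 6 to 10 in HA and 11 in APC alone. Lyz1, a lysozyme gene of macrophages, was at 3.62 to 5.31 in PBAB, 6.29 to 11.9 in HA and 14.1 in APC alone. These arrays measure RNA of whole cultures, so fewer cells of a type and less RNA per cell cannot be told apart.

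**Figure D1:**
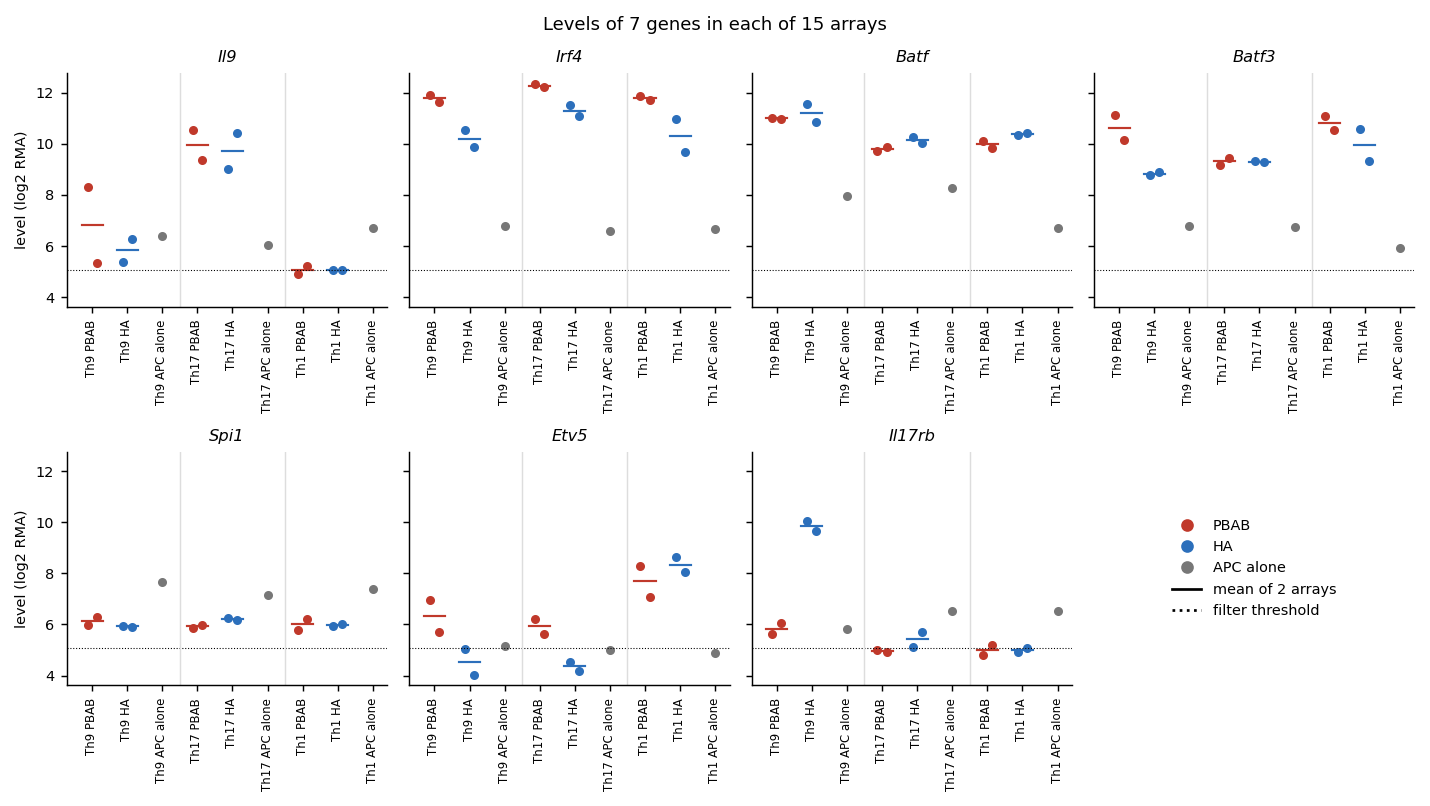
Level of each of the 7 genes (log2 RMA, y axis) in each of the 15 arrays, by culture and activation, with points for arrays, bars for the mean of 2 arrays and a dotted line at the filter threshold of 5.07. Il9 is highest in the 4 Th17 arrays of PBAB and HA, Il17rb stands out in the 2 Th9 HA arrays, and Spi1 is highest in the 3 arrays of APC alone.

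Il9, the cytokine gene itself, was highest in Th17 cultures, not in Th9 cultures, under both activations. Its levels were 10.52 and 9.38 in Th17 PBAB arrays and 9.01 and 10.41 in Th17 HA arrays. In Th9 cultures they were 8.31 and 5.33 under PBAB and 5.39 and 6.29 under HA. In Th1 cultures they were 4.92 and 5.24 under PBAB and 5.07 and 5.08 under HA, at the filter threshold. The arrays of APC alone lay above the Th1 and below the Th17 cultures, at 6.41 for Th9, 6.04 for Th17 and 6.72 for Th1. All 4 activated Th17 arrays were above every other array of the series, and both arrays of each Th1 group were below those of the Th9 groups. Within an array, Il9 ranked at the 87.2nd to 95.9th percentile of all probe sets in activated Th17 cultures, the 46.9th to 81.6th in Th9 and the 40.1st to 44.0th in Th1. In APC alone Il9 ranked at the 54.0th to 70.7th percentile, in arrays whose medians were higher, as given above.

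The difference in Il9, Th9 minus Th17 cultures, was -3.86 ± 0.80 under HA (limma adjusted p = 0.0219) and -3.13 ± 0.80 under PBAB (adjusted p = 0.0463). Both are differences in signal, since an array of each Th9 group was near the threshold (5.39 under HA and 5.33 under PBAB). Between Th17 and Th1 cultures it was 4.63 ± 0.80 under HA (adjusted p = 0.00563) and 4.87 ± 0.80 under PBAB (adjusted p = 0.00475), as differences in signal from Th1 cultures that lay at the threshold. Th9 and Th1 cultures were not told apart, at 0.77 ± 0.80 under HA (adjusted p = 0.789) and 1.74 ± 0.80 under PBAB (adjusted p = 0.497), with a 95% interval of -0.04 to 3.52 for PBAB. The call of Th9 against Th17 under HA was lost without Th9 HA 1 (-3.41, adjusted p = 0.132), Th9 HA 2 (-4.31, adjusted p = 0.0634) or Th17 HA 2 (-3.16, adjusted p = 0.165), and that of Th17 against Th1 under HA without Th17 HA 2 (3.93, adjusted p = 0.0578). Under PBAB, the call of Th9 against Th17 held without Th9 PBAB 1 or either Th17 HA array and was lost in limma without each of the other 9 activated arrays (adjusted p = 0.0583 to 0.273). It was -1.64 (adjusted p = 0.219) without Th9 PBAB 2, -2.56 (0.273) without Th17 PBAB 1 and -3.70 (0.0976) without Th17 PBAB 2, and -3.13 without each of the others. With the replicate number as a block, all 4 calls of Il9 held, at limma adjusted p = 0.00865 and 0.0201 for Th9 against Th17 and 0.00238 and 0.00172 for Th17 against Th1 (HA, then PBAB).

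Macrophage markers followed the same order of cultures as Il9 under HA. The mean of the 12 markers was 6.25 and 5.82 in Th9 HA, 6.58 and 6.81 in Th17 HA and 5.18 and 5.03 in Th1 HA arrays. Under PBAB it lay between 4.66 and 5.11 in all 6 arrays, and the differences of Il9 there were -3.13 for Th9 minus Th17 and 4.87 for Th17 minus Th1. The arrays of APC alone, where these markers were highest and the range between the quartiles was narrower, had Il9 at most at 6.72. The part of macrophages in the level of Il9 was not tested.

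Activation did not give a called difference in Il9 in any culture. PBAB minus HA was 0.98 ± 0.80 in Th9 (95% interval -0.81 to 2.76, adjusted p = 0.546), 0.25 ± 0.80 in Th17 (-1.54 to 2.03, 0.893) and 0.00 ± 0.80 in Th1 cultures (-1.78 to 1.79, 0.999). Both Th9 PBAB arrays differed by 2.98, and none of the 15498 genes tested had a larger gap between these 2 arrays; the count of larger gaps was 603 between both Th9 HA arrays. Without Th9 PBAB 1 the difference in Th9 cultures was -0.51 and was not called. Without Th9 PBAB 2 it was 2.47 ± 0.60 and was called (limma adjusted p = 0.0381), as was Th9 against Th1 under PBAB (3.23, adjusted p = 0.0433). Of 3 other type 2 cytokine genes, Il4 (8.58 in Th9 PBAB 1 and 8.69 in Th9 PBAB 2) and Il5 (8.59 and 8.49) did not share this gap, while Il13, at 9.98 and 8.88, was also lower in Th9 PBAB 2. The other 6 genes described here differed between both arrays by 0.06 (Batf) to 1.27 (Etv5). The sources used here do not say what differed between these 2 cultures.

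Over the 7 genes, the activation contrast was called most often in Th9 cultures. In Th9 cultures 3 of the 7 (Irf4, Batf3 and Etv5) were called higher in PBAB and 1 (Il17rb) lower, against 13.7% of all genes tested called in either direction. Averaged over the cultures the same 4 genes were called, beside 30.6% of all genes. In Th1 cultures 1 of the 7 was called, Irf4, beside 14.6% of all genes, and in Th17 cultures 0 of the 7 were called in limma, beside 17.1%. In Th17 cultures 2 of the 7, Irf4 and Etv5, had an unadjusted p under 0.05, and both were called with the replicate number as a block. Median differences over the 7 genes were 0.98 in Th9, 0.02 in Th17 and 0.00 in Th1 cultures, against 0.01, 0.00 and 0.03 over all genes tested.

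**Figure D2:**
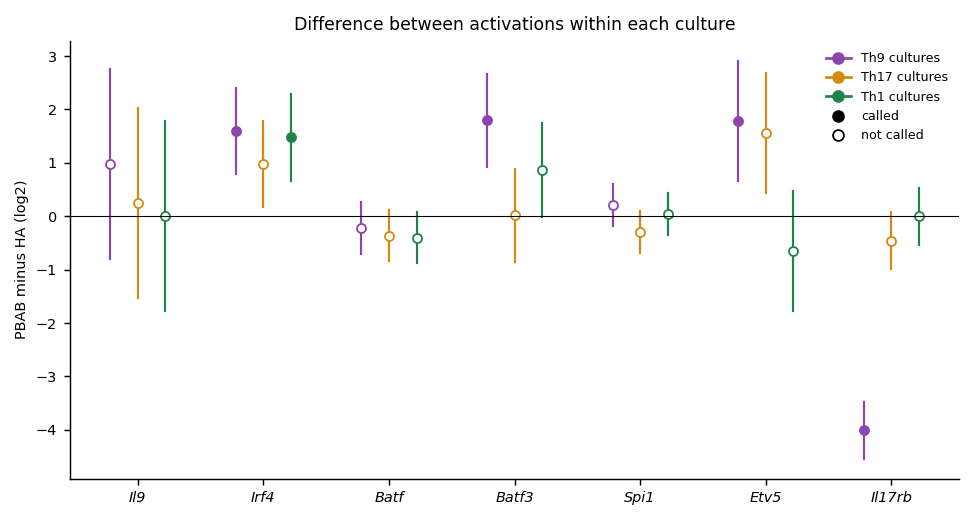
PBAB minus HA (log2, y axis) for each of the 7 genes in Th9, Th17 and Th1 cultures, with bars for the 95% confidence interval of limma and filled points for called differences. Il17rb in Th9 cultures lies at -4.01, Irf4 is above 0 in all 3 cultures, and the intervals of Il9 and Spi1 include 0 in all 3.

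Irf4, whose protein is induced by the T cell receptor in step with signal strength, was the gene of the 7 that was higher in PBAB than in HA in the most cultures. Its levels were 11.93 and 11.65 in Th9 PBAB against 10.52 and 9.87 in Th9 HA arrays, 12.35 and 12.21 in Th17 PBAB against 11.51 and 11.10 in Th17 HA arrays, and 11.88 and 11.73 in Th1 PBAB against 10.97 and 9.68 in Th1 HA arrays. In each culture both PBAB arrays were above both HA arrays. PBAB minus HA was 1.59 ± 0.36 in Th9 (limma adjusted p = 0.0162, 3.02-fold), 1.48 ± 0.36 in Th1 (adjusted p = 0.0220, 2.78-fold) and 0.98 ± 0.36 in Th17 cultures, where it was not called (adjusted p = 0.0990). In Th17 cultures it was called with the replicate block (0.0102), with the mean of the probe sets (0.00188), with quantile normalization again (0.0410) and with only the arrays compared (0.0295). The 3 differences were not shown to differ from each other, with adjusted p of 0.702 to 0.973 for the differences between cultures.

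The calls of Irf4 depended on single arrays. In Th9 cultures the call was lost without Th9 HA 2 (1.26, adjusted p = 0.120), Th9 PBAB 1 (1.45, 0.0991) or Th9 PBAB 2 (1.73, 0.0521). In Th1 cultures it was lost without either PBAB array (1.40 and 0.102 without the first, 1.55 and 0.0827 without the second) and without Th1 HA 2 (0.83, 0.140), and with only the arrays compared (0.0715). In Th17 cultures it was gained without Th1 HA 1 or Th1 HA 2 (0.0218 without either), at the same difference of 0.98. Averaged over the cultures, PBAB minus HA was 1.35 ± 0.21 and was called without each array in turn (highest adjusted p = 0.00312).

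The other probe set of Irf4 gave larger activation differences, of 3.18 ± 0.31 in Th9, 3.37 ± 0.31 in Th17 and 2.88 ± 0.31 in Th1 cultures, called in all 3 (limma adjusted p = 0.000176, 0.000165 and 0.000275). It read 9.29 to 10.35 in PBAB arrays, 6.08 to 7.12 in HA arrays and 5.97 to 6.58 in APC alone. HA arrays were thus 0.28 ± 0.22 above APC alone with this probe set (adjusted p = 0.244), and 3.92 ± 0.26 above with the probe set used (adjusted p = 8.2e-08). The gap between the 3′ and 5′ actin signals also differed between the activations, as given above, and the part of RNA quality in this was not tested.

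**Figure D3:**
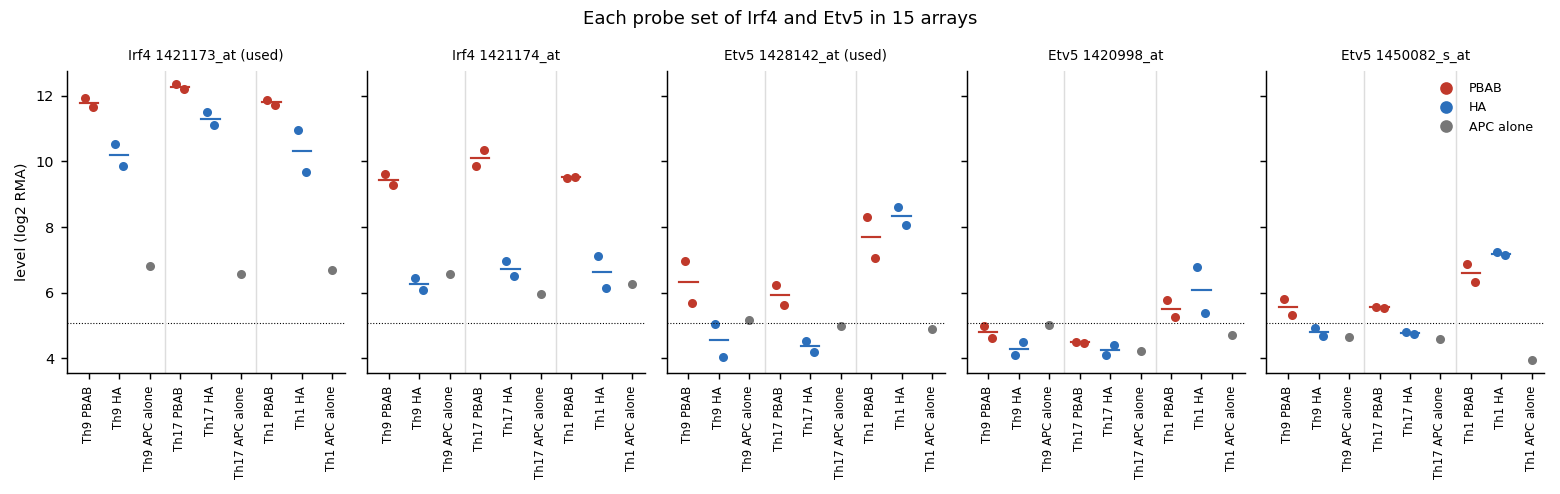
Level (log2 RMA, y axis) of each probe set of Irf4 and Etv5 in each of the 15 arrays, by culture and activation, with bars for the mean of 2 arrays and a dotted line at 5.07. The second probe set of Irf4 separates PBAB arrays (9.29 to 10.35) from HA arrays (6.08 to 7.12), and all 3 probe sets of Etv5 are highest in the activated Th1 arrays.

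Batf, which encodes the AP-1 partner of IRF4, was highest in Th9 cultures under both activations. Its levels were 11.03 and 10.97 in Th9 PBAB, 9.71 and 9.87 in Th17 PBAB and 10.11 and 9.86 in Th1 PBAB arrays. Under HA they were 11.56 and 10.87 in Th9, 10.26 and 10.05 in Th17 and 10.34 and 10.43 in Th1 arrays. Both Th9 arrays were above the 4 arrays of the other lineages under each activation, and the replicates of Th9 HA differed by 0.68.

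Against Th17 cultures the difference in Batf was 1.21 ± 0.22 under PBAB (limma adjusted p = 0.00852, 2.31-fold) and 1.06 ± 0.22 under HA (adjusted p = 0.0206, 2.08-fold). Against Th1 cultures it was 1.01 ± 0.22 under PBAB (adjusted p = 0.0419, 2.02-fold) and 0.83 ± 0.22 under HA, which was not called (adjusted p = 0.0576). Th9 against Th1 under HA was called with the replicate block (limma adjusted p = 0.0147), with the mean of probe sets (0.0482) and with quantile normalization again (0.0235). Batf has 1 probe set, so the mean of probe sets left its own values and its difference unchanged. Under PBAB the call against Th17 was lost without Th9 PBAB 1 (1.18, adjusted p = 0.0621) or Th17 PBAB 1 (1.13, 0.0675). Under HA it was lost without Th9 HA 1 (0.72, 0.115), Th17 HA 1 (1.17, 0.0651) or Th17 HA 2 (0.95, 0.141) and with only the arrays compared (0.124), and the comparison with Th1 was called without Th9 HA 2 (1.17, 0.0128). The call against Th1 under PBAB held without either Th9 HA array and was lost without each of the other 10 (adjusted p = 0.0616 to 0.311, at 0.88 to 1.14), with arrays centred on the median (0.0589) and with only the arrays compared (0.0876). Activation gave no called difference in Batf in any culture, at -0.22 ± 0.22 in Th9, -0.36 ± 0.22 in Th17 and -0.40 ± 0.22 in Th1. Averaged over the cultures it was -0.33 ± 0.13 (adjusted p = 0.0756), called with the replicate block (0.0292) and without Th9 HA 2 (-0.44, 0.00998).

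Batf3, a close relative of Batf that can stand in for it in mouse T cells and is known for its part in dendritic cells, was higher in PBAB than in HA in Th9 cultures. Its levels were 11.11 and 10.15 in Th9 PBAB against 8.77 and 8.90 in Th9 HA arrays, 9.19 and 9.44 in Th17 PBAB against 9.32 and 9.27 in Th17 HA arrays, and 11.07 and 10.56 in Th1 PBAB against 10.59 and 9.32 in Th1 HA arrays. The groups did not overlap in Th9 cultures and overlapped in Th17 and Th1 cultures, and the 2 Th1 HA arrays lay 1.26 apart. PBAB minus HA was 1.79 ± 0.40 in Th9 (limma adjusted p = 0.0135, 3.47-fold), 0.02 ± 0.40 in Th17 (95% interval -0.86 to 0.89) and 0.86 ± 0.40 in Th1 cultures (adjusted p = 0.191). The difference between Th9 and Th17 cultures in this contrast was 1.78 ± 0.56 (adjusted p = 0.149), and with the replicate block it was called (0.0331). Averaged over the cultures, PBAB minus HA was 0.89 ± 0.23 (adjusted p = 0.0126) and was called without each array in turn.

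The call of Batf3 in Th9 cultures was lost without Th9 HA 1 (1.73, adjusted p = 0.0666), Th9 HA 2 (1.86, 0.0600) or Th9 PBAB 1 (1.31, 0.107), and in Th1 cultures a call appeared without Th1 HA 1 (1.49, 0.0286). Among lineages, Batf3 was lower in Th17 than in Th1 cultures under PBAB, at -1.50 ± 0.40 (adjusted p = 0.0473, 2.83-fold lower). That call was lost without either Th1 PBAB, Th9 HA, Th17 HA or Th17 PBAB array (adjusted p = 0.0653 to 0.234, at -1.24 to -1.76), without the filter (0.0508) and with arrays centred on the median (0.0626). Th9 minus Th17 under PBAB was 1.32 ± 0.40 (0.0836), called with the block (0.0178), with only the arrays compared (0.0499) and without either Th1 HA array (0.0299). Th9 minus Th1 under HA was -1.12 ± 0.40 (0.173), called with the block (0.0448) and without Th1 HA 2 (-1.75, 0.0304). Dendritic cell markers, 7 on the array, had a mean of 5.70 to 5.95 in PBAB, 5.57 to 5.87 in HA and 6.06 to 6.65 in APC alone, and Batf3 itself was lower in APC alone, at 5.94 to 6.77.

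Spi1, which encodes PU.1, differed little among the activated cultures. Its levels were 6.0 and 6.27 in Th9 PBAB, 5.94 and 5.91 in Th9 HA, 5.87 and 5.97 in Th17 PBAB, 6.27 and 6.16 in Th17 HA, 5.79 and 6.21 in Th1 PBAB and 5.92 and 6.0 in Th1 HA arrays. Its range over these 12 arrays was 0.48, and the ranges of the 6 PBAB and the 6 HA arrays overlapped. PBAB minus HA averaged over the cultures was -0.01 ± 0.10 with a 95% interval of -0.24 to 0.21, and none of the 6 lineage differences of Spi1 was called, with intervals that lay within -0.68 and 0.64. In APC alone Spi1 was at 7.67, 7.15 and 7.41, above all activated arrays. PBAB minus APC alone was -1.39 ± 0.13 (limma adjusted p = 1.14e-06) and HA minus APC alone was -1.37 ± 0.13 (adjusted p = 1.19e-06), while the median of all genes was 0.31 and 0.36 above APC alone. Macrophages are rich in PU.1, and the macrophage markers were also highest in APC alone, and their part in the level of Spi1 was not tested.

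Etv5, the other ETS factor gene, was highest in Th1 cultures. Its levels were 8.30 and 7.07 in Th1 PBAB and 8.62 and 8.07 in Th1 HA arrays. In Th9 cultures they were 6.97 and 5.70 under PBAB and 5.05 and 4.03 under HA, and in Th17 cultures 6.22 and 5.63 under PBAB and 4.54 and 4.19 under HA. Every activated Th1 array was above every Th9 and Th17 array, and the Th9 HA and Th17 HA arrays were below the filter threshold, as was APC alone in 2 of its 3 arrays (4.89 to 5.16).

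Under HA, Th9 minus Th1 was -3.80 ± 0.51 for Etv5 (limma adjusted p = 0.00136) and Th17 minus Th1 was -3.98 ± 0.51 (adjusted p = 0.000802), and both calls held without each array in turn. The means of Th9 HA (4.54) and Th17 HA (4.37) were below the filter threshold, so these are differences in signal from background. Both other probe sets gave the same calls, at -1.80 and -2.39 for Th9 minus Th1 and -1.83 and -2.42 for Th17 minus Th1. Under PBAB the differences were -1.35 ± 0.51 (adjusted p = 0.336) and -1.76 ± 0.51 (0.0674), and with the replicate block both were called (0.00461 and 0.000386); Th17 minus Th1 was also called without Th9 PBAB 1 or Th9 PBAB 2 (0.0487 without either), with the mean of probe sets (0.0350), with array weights (0.04997) and with only the arrays compared (0.0353). One other probe set of Etv5 called both, at -1.04 (0.0395) and -1.05 (0.0167). PBAB minus HA was 1.79 ± 0.51 in Th9 (adjusted p = 0.0412), 1.55 ± 0.51 in Th17 (0.0616, with the block 0.000434) and -0.66 ± 0.51 in Th1 cultures (0.462, with the block 0.0462). The differences of these differences were 2.45 ± 0.72 for Th9 minus Th1 (adjusted p = 0.175) and 2.21 ± 0.72 for Th17 minus Th1 (0.141), and with the block both were called (0.00158 and 0.00178).

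In Th9 cultures the activation call of Etv5 was lost without Th9 HA 2 (1.28, adjusted p = 0.255), Th9 PBAB 1 (1.15, 0.266), or any Th17 array (0.0542 to 0.0546, at 1.79). It was also lost with the mean of probe sets (1.02, 0.0570), arrays centred on the median (0.0536), array weights (0.0581) and only the arrays compared (0.0699), and in Th17 cultures it was gained without either Th1 PBAB or either Th9 PBAB array (0.0418 to 0.0436) and with only the arrays compared (0.0148). One other probe set of Etv5 gave 0.76 in Th9 (adjusted p = 0.0440) and 0.78 in Th17 cultures (0.0342), and the third gave 0.51 (0.488) and 0.24 (0.768). Averaged over the cultures the difference was 0.89 ± 0.29 (adjusted p = 0.0401), and it was not called with either other probe set (0.0868 and 0.889), with the mean of probe sets (0.107), with arrays centred on the median (0.0565) or without any 1 of 8 arrays, all but Th1 HA 1, Th1 PBAB 2, Th9 HA 1 and Th9 PBAB 2 (0.0503 to 0.107).

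Il17rb, the receptor subunit, had the largest activation difference of the 7 genes. Its levels were 5.63 and 6.04 in Th9 PBAB against 10.04 and 9.65 in Th9 HA arrays. Elsewhere it lay near the filter threshold, at 4.99 and 4.92 in Th17 PBAB, 5.12 and 5.71 in Th17 HA, 4.81 and 5.19 in Th1 PBAB and 4.94 and 5.07 in Th1 HA arrays, with 5.83, 6.54 and 6.53 in APC alone of Th9, Th17 and Th1. Both Th9 HA arrays stood more than 3 units above every other array. PBAB minus HA in Th9 cultures was -4.01 ± 0.24 (limma adjusted p = 1.53e-05), lower in PBAB, and the call held under all 22 alternatives (-4.22 to -3.62). This is a difference in signal, since the Th9 PBAB arrays (5.63 and 6.04) were not far above the threshold. Under HA, Th9 cultures were 4.43 ± 0.24 above Th17 (adjusted p = 1.14e-05) and 4.84 ± 0.24 above Th1 cultures (adjusted p = 3.15e-06), both as differences in signal from groups near the threshold. Under PBAB, Th9 cultures were 0.88 ± 0.24 above Th17 (adjusted p = 0.0591) and 0.83 ± 0.24 above Th1 (0.156), both called with the replicate block (0.0157 and 0.0424), and the difference from Th17 also without either Th17 HA array (0.0427), with quantile normalization again (0.0298) and with array weights (0.0447).

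In Th17 and Th1 cultures PBAB minus HA was -0.46 ± 0.24 (adjusted p = 0.251) and -0.003 ± 0.24 (0.995) for Il17rb. The test of the difference itself gave -3.55 ± 0.34 for Th9 minus Th17 (adjusted p = 0.00174) and -4.01 ± 0.34 for Th9 minus Th1 (adjusted p = 0.000767). In these differences 1 of the 7 genes was called in each, Il17rb, beside 1.71% and 1.37% of all genes, and 0 of 7 in Th17 minus Th1 (3.53%), where Etv5 alone had an unadjusted p under 0.05. The 3 genes whose levels followed Il17rb most closely over the 12 activated arrays were Chil3 (r = 0.99), Ccl24 (0.99) and Tdrd5 (0.97). Chil3, a chitinase-like gene, and Ccl24, a chemokine gene, are known to be induced by IL-4 in mouse macrophages.

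Chil3 was at 3.02 and 3.33 in Th9 PBAB, 9.11 and 9.07 in Th9 HA and 13.8 in Th9 APC alone, and Ccl24 at 5.90 and 6.35 in Th9 PBAB, 8.96 and 8.44 in Th9 HA and 10.1 in Th9 APC alone. The 12 macrophage markers had means of 4.66 and 5.03 in Th9 PBAB and 6.25 and 5.82 in Th9 HA arrays. In Th17 HA arrays their means were higher still, at 6.58 and 6.81, with Il17rb at 5.12 and 5.71. In Th9 APC alone, where Chil3, Ccl24 and the macrophage markers (9.14) were at their highest among Th9 arrays, Il17rb was at 5.83, below both Th9 HA arrays. Of the 9 mast cell and basophil markers, the mean was 4.82 to 5.11 in PBAB, 4.87 to 5.33 in HA and 6.01 to 6.22 in APC alone. The part of these other cells in the level of Il17rb was not tested.

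**Figure D4:**
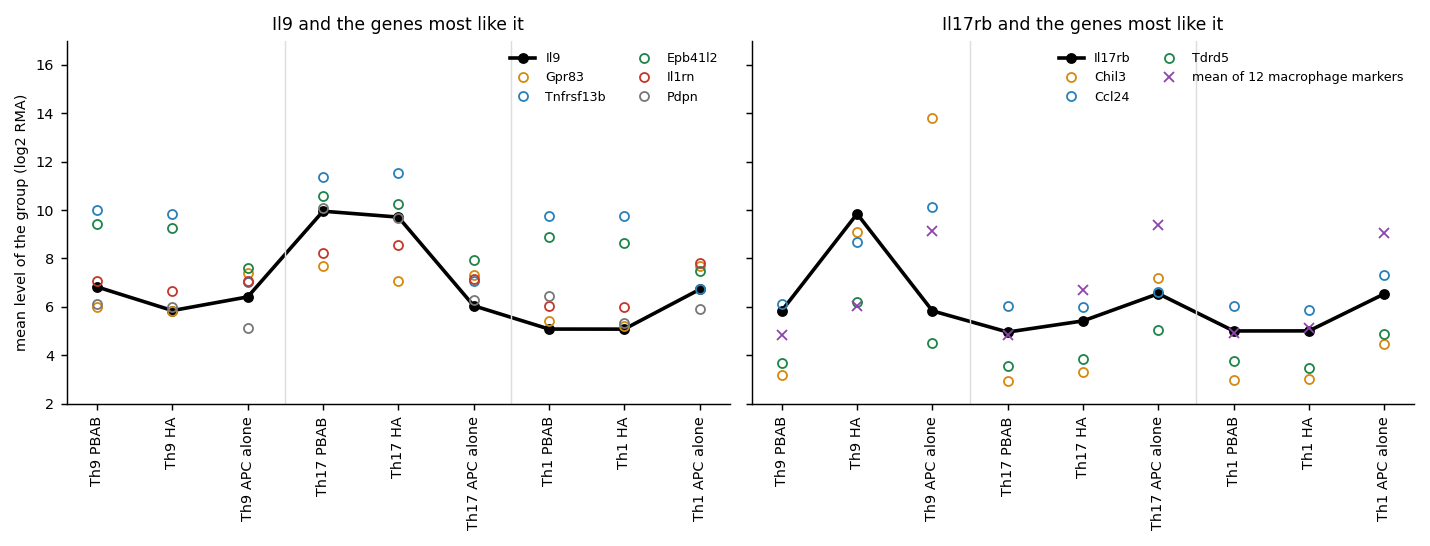
Mean level of each group (log2 RMA, y axis) for Il9 with the 5 genes most like it (left) and Il17rb with the 3 genes most like it and the mean of 12 macrophage markers (right), over the 9 groups. Il9 is highest in Th17 PBAB and Th17 HA, and in Th9 APC alone Chil3 reaches 13.8 with Il17rb at 5.83.

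Between lineages, 4 to 6 of the 7 genes were not called in each comparison, and the called ones are given beside the share of all genes called. For Th9 minus Th17, 1 was higher and 1 lower under PBAB (Batf and Il9, beside 6.37% of all genes) and 2 were higher and 1 lower under HA (Batf, Il17rb and Il9, 4.77%). For Th9 minus Th1, 1 was higher under PBAB (Batf, 2.16%), and 1 was higher and 1 lower under HA (Il17rb and Etv5, 5.34%). For Th17 minus Th1, 1 was higher and 1 lower under PBAB (Il9 and Batf3, 6.99%), and 1 higher and 1 lower under HA (Il9 and Etv5, 6.9%). Irf4 was called in none of these 6 comparisons; with the replicate block, Th9 minus Th17 under HA (-1.11, limma adjusted p = 0.0132) and Th17 minus Th1 under HA (0.98, 0.0197) were called for it. Without Th1 HA 1, both were also called (-1.11, 0.0318, and 1.62, 0.0130), and without Th1 HA 2 the first of them (-1.11, 0.0318). Against APC alone, averaged over the cultures, PBAB arrays had 4 of the 7 higher and 2 lower, and HA arrays 4 higher and 1 lower. Of all genes, 89.8% and 90.7% were called there. PBAB and HA arrays were above APC alone by 5.27 and 3.92 for Irf4, 2.61 and 2.94 for Batf and 3.76 and 2.87 for Batf3. Il17rb, on this average, was lower than APC alone in PBAB (-1.04 ± 0.17) and 0.45 ± 0.17 higher in HA arrays. In APC alone it ranked at the 47.9th to 66.7th percentile, in arrays with medians of 5.89 to 5.93, against 5.45 to 5.54 in PBAB. The part of this offset in the difference was not tested. The HA call was lost without Th1 HA 2 (0.43), Th9 HA 1 (0.39) or Th17 HA 2 (0.35). By culture, APC alone minus HA was -4.01 in Th9, 1.13 in Th17 and 1.53 in Th1, so HA was higher in Th9 cultures only. APC alone minus PBAB was -0.004 in Th9, 1.59 in Th17 and 1.53 in Th1.

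**Figure D5:**
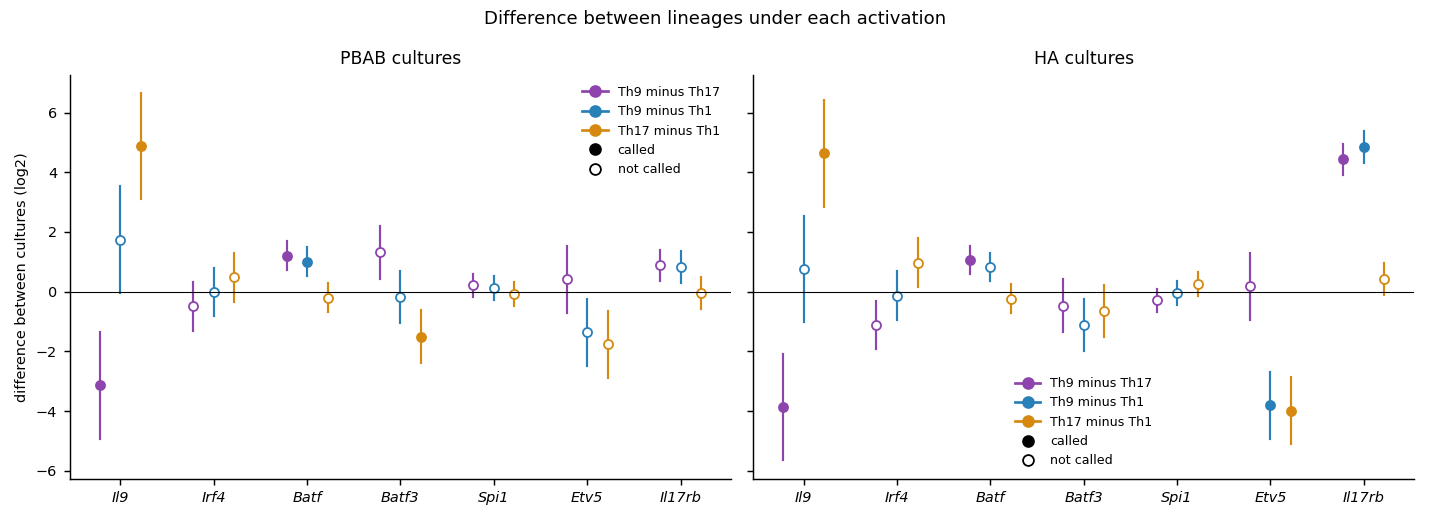
Difference between lineages (log2, y axis) for each of the 7 genes in PBAB cultures (left) and HA cultures (right), with bars for the 95% confidence interval of limma and filled points for called differences. Il9 is lower in Th9 than in Th17 cultures on both sides, Batf is higher, and the large values of Il17rb (4.43 and 4.84) are on the HA side.

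When the 9 groups were put in order of their mean for each gene, 8 of the 56 neighbouring pairs were called. Of the 15498 genes tested, 12219 to 12752 were called in those pairs that set an activated group against APC alone. Between Th17 HA and Th9 PBAB 2084 were called, and between Th9 and Th1 APC alone 773. APC alone is 1 array per lineage, and 7 of the 8 called pairs have such an array on at least one side, with its spread assumed to be that of the activated groups. For Il9 the step came between Th17 HA and Th9 PBAB (2.89, limma adjusted p = 0.0385), with the other 7 groups within 1.74 of each other. For Irf4 and Batf3 it came below the lowest activated group, Th9 HA, before Th9 APC alone (3.39 and 2.06), for Batf below Th17 PBAB before Th17 APC alone (1.54) and again between Th9 and Th1 APC alone (1.25, 1 array against 1 array, with no replicate check), and for Spi1 between Th17 APC alone and Th17 HA (0.93). For Il17rb it came between Th9 HA and Th17 APC alone (3.30) and between Th1 APC alone and Th9 PBAB (0.70). Etv5 had no called step between neighbours, from 8.34 in Th1 HA down to 4.37 in Th17 HA.

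Genes of the signals known to act upstream of Il9 were counted by list. The shares of all genes called in these comparisons were 13.7% for PBAB minus HA in Th9 cultures, 4.77% under HA and 6.37% under PBAB for Th9 minus Th17, and 5.34% under HA and 2.16% under PBAB for Th9 minus Th1. Of 7 tested genes of the IL-4 signal, 2 were higher in Th9 than in Th17 cultures under HA and 1 under PBAB, and 2 and 1 were higher than in Th1, with none lower. Gata3, which encodes the master regulator of type 2 cytokines, was 2.83 ± 0.40 above Th17 under HA (limma adjusted p = 0.00307), 5.78 ± 0.40 under PBAB (4.63e-05, with Th17 PBAB at 5.43, near the threshold) and 3.48 ± 0.40 above Th1 under PBAB (0.00135). Of 9 genes of the TGF-beta signal, 0 to 2 were called higher and 0 to 1 lower in each of these comparisons. Tgfbr1, a TGF-beta receptor, was 2.06 ± 0.25 above Th1 under HA, and Smad3, which carries the TGF-beta signal, was lower in Th9 than in Th17 under PBAB (-1.47 ± 0.23). In this account of pathway lists, the genes named are among those of the fixed rule whose calls held without each array in turn. Traf3ip2, Foxp1, Vdr, Tnfrsf4 and Nfatc2, named with their losses, are the exceptions. The choice was made after the values were seen. Of the 70 differences that the rule names, 42 lost their call under at least 1 alternative, 39 of them without 1 array.

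Of 10 cytokine and chemokine genes known beside Il9, 4 were higher and 3 lower in PBAB than in HA in Th9 cultures, beside 13.7% of all genes. Il5 was 3.26 ± 0.24 higher in PBAB (8.54 against 5.28, near the threshold, limma adjusted p = 3.54e-05). Il4 was higher in Th9 than in both other lineages under both activations. It was 3.90 ± 0.18 above Th17 under PBAB and 2.66 ± 0.18 under HA, and Il5 was 4.66 ± 0.24 above Th17 under PBAB. Il13 was 3.82 ± 0.36 above Th17 under PBAB. Th17 PBAB means were 4.73 for Il4 and 3.88 for Il5, below the threshold. Il21, a cytokine gene of Th17 cells, was lower in Th9 than in Th17 under HA (-3.78 ± 0.39), and in Th9 against Th1 Csf2 was lower under HA (-3.38 ± 0.40) and Il3 under PBAB (-3.16 ± 0.25, with Th9 PBAB at 4.30, below the threshold).

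Among 8 other factor genes listed for Il9, 2 (Foxp1 and Vdr) were higher in PBAB than in HA in Th9 cultures. None was lower, beside 13.7% of all genes called. Foxp1 lost its call under 1 and Vdr under 3 of 22 alternatives. Whether each of the 8 activates or restrains Il9 was not tested. Under PBAB, Maf and Ahr were 4.58 ± 0.27 and 3.18 ± 0.40 above Th1 (adjusted p = 1.4e-05 and 0.00201, limma). Against Th17 cultures, 0 of the 8 were higher and 2 lower under HA (4.77% of all genes), and 0 higher and 1 lower under PBAB (6.37%). Among 7 repressors, 1 was higher and 1 lower in PBAB than in HA in Th9 cultures. Tbx21, the Th1 regulator T-bet, was lower in Th9 than in Th1 under HA (-4.02 ± 0.43) and higher than in Th17 under PBAB (2.95 ± 0.43, with Th17 PBAB at 5.06, at the threshold), and Socs3, a brake on STAT3, was lower in Th9 than in Th17 under PBAB (-2.43 ± 0.38). Of 10 AP-1 and IRF partners, Irf1 was the gene called higher in Th9 than in Th17, by 1.00 ± 0.16 under PBAB and 1.15 ± 0.16 under HA, with none lower. Under HA that call of Irf1 was lost under 1 of 22 alternatives (limma adjusted p = 0.0522).

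Of 8 other ETS factor genes, 1 was higher and 1 lower in PBAB than in HA in Th9 cultures (13.7% of all genes), and 1 was higher and 1 lower in Th9 than in Th17 under HA (4.77%). Of 8 genes of T cell and costimulatory receptor signalling, 2 were higher and 1 lower in PBAB in Th9 cultures. The higher ones encode costimulatory receptors: Tnfrsf18 (GITR), at 1.29 ± 0.21 (2.45-fold), and Tnfrsf4, at 1.07 ± 0.25. The lower one was Nfatc2, which encodes a transcription factor, at -0.79 ± 0.19. Tnfrsf4 lost its call under 3 and Nfatc2 under 6 of 22 alternatives. Of 5 genes of the IL-2 and STAT5 signal, 2 were higher in PBAB in Th9 cultures, and Il2 itself was lower in Th9 than in Th17 under HA (-2.87 ± 0.27, with Th9 HA at 4.44, below the threshold). The list on IL-9, IL-25 and IL-33 signalling gives no value for the specific receptors of IL-9 and IL-33, since Il9r did not pass the filter and Il1rl1 was not matched to a probe set with 1 symbol. Of its other 4 genes, Traf3ip2, an adaptor of IL-17 receptors, was higher in PBAB in Th9 cultures and Il1r1 lower. The call of Traf3ip2 was lost under 3 of 22 alternatives, 2 of them without 1 array. Il1r1, the IL-1 receptor, was lower in PBAB in Th9 cultures (-1.78 ± 0.23, 3.44-fold lower) and higher in Th9 than in Th1 under HA (1.45 ± 0.23). Il17ra, the partner of Il17rb in the IL-25 receptor, was lower in Th9 than in Th17 under PBAB (-1.56 ± 0.19).

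The 5 genes whose levels followed Il9 most closely over the 12 activated arrays were Gpr83 (Pearson r = 0.95), Tnfrsf13b (0.94), Epb41l2 (0.93), Il1rn (0.93) and Pdpn (0.91), as a description over arrays that share the contrast between lineages. Pdpn, which encodes podoplanin, averaged 10.1 in Th17 PBAB and 9.66 in Th17 HA, and 5.33 to 6.44 in the activated Th9 and Th1 groups. None of the 6 other genes described here was among them. Over the same arrays the correlation of Il9 with its factors was 0.46 for Irf4, -0.42 for Batf, -0.33 for Batf3, 0.11 for Spi1 and -0.51 for Etv5, and with Il17rb it was -0.24. Irf4 was followed most closely by Gm527 (0.97), Cul7 (0.96) and Ncs1 (0.96), Batf by Ppp2r3a (0.95), Sema4b (0.95) and Rnf128 (0.94), and Batf3 by Cacna1s (0.95), Irf8 (0.95) and Slc35f2 (0.93). Etv5 was followed by Ifitm2 (0.97), Tbkbp1 (0.95) and Ckb (0.95), and Spi1, whose range was smallest, by Gsto1 (0.87), Eif4g3 (0.87) and Kcnip1 (0.82).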

How the data were processed

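The deposited table holds log2 values of 45101 probe sets, which come from RMA according to the submitters' processing notes. Neither its software nor the base of the logarithm is stated, and base 2 was inferred because the values run from about 2 to 15. Groups came from the labels. The platform annotation (2016) gave 34958 probe sets 1 symbol, 932 several and 9211 none. For each of 18194 genes the probe set with the highest mean was kept, and 15498 genes above 5.07 (the 40th percentile of the table) in at least 2 arrays were tested. limma 3.58.1 in R 4.3.3 was fitted with 1 mean per group over 15 arrays (6 residual and 4.38 prior degrees of freedom), with Benjamini-Hochberg adjustment, calls at 0.05 and 95% intervals. Only the number of arrays limits the precision; counting depth does not apply.

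The 7 genes and the pathway and marker lists were chosen with earlier results of these data known. Genes were named by a fixed rule: all 7, up to 3 called members of each pathway list with the smallest p, and the 3 genes (5 for Il9) with the highest correlation with each of the 7 over the 12 activated arrays. Deviations of same-numbered arrays from their group means correlated at 0.296 to 0.708 (median 0.484) in all 15 pairs of activated groups. The replicate numbers, which come from the labels, were therefore taken to pair the arrays. This is an assumption, since the correlation does not show shared animals or batches. Array 1 also had a wider range between the quartiles than array 2 in every activated group but Th17 PBAB (3.31 and 3.33). The part of this in the correlation was not tested. The reported fit has no block for them, and the fit with it is an alternative. On simulated data the fit recovered 62% of 2-fold and 100% of 4-fold changes for PBAB minus HA in Th9 cultures, and 59% and 98% for Th9 minus Th17 under HA (100 genes of each size among 15498). Of the calls on these data, 4.14% and 5.99% were false. These shares do not describe Il9, whose standard error was 0.80 in both comparisons, against 0.18 (Spi1) to 0.51 (Etv5) for the other genes described here. Promoters and coordinates are RefSeq's, of GRCm38.p6.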

Additional observations from a re-analysis of the deposited data

Results flagged for a closer look

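Il17rb differed in its PBAB minus HA difference between the cultures, by a test of the difference itself. The HEL dose was 1 µg/ml in Th9 HA and 2 µg/ml in Th17 and Th1 HA cultures, so lineage and dose cannot be told apart here. PBAB minus HA in Th9 cultures less that in Th1 cultures was -4.01 ± 0.34 (limma adjusted p = 0.000767), and less that in Th17 cultures it was -3.55 ± 0.34 (adjusted p = 0.00174), with 2 arrays in each group. Both differences were called without each of the 12 activated arrays in turn (-4.21 to -3.80 and -3.84 to -3.25) and under 10 other settings. Both Th9 PBAB arrays (5.63 and 6.04) were below both Th9 HA arrays (10.04 and 9.65).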

How the results depend on the processing

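Each difference of the 7 genes in the 15 comparisons was recomputed under 9 to 12 other settings or probe sets and without each activated array in turn. None of the called values changed sign, 82 of the recomputed values lost a call (62 of them without 1 array) and 66 gained one. The replicate numbers were taken to pair the arrays, and with the replicate block no call of the 7 genes was lost. With the block, 2 of the 7 were called for PBAB minus HA in Th1 (beside 4380 of all 15498 genes) and 2 in Th17 cultures (4709). For Th9 minus Th1, 4 were called under HA (1863) and 3 under PBAB (861), and for Th9 minus Th17 4 under PBAB (2351). In the differences between cultures 2 were called for Th9 minus Th1 (739), 2 for Th9 minus Th17 (1476) and 1 for Th17 minus Th1 (1828). Of the neighbouring pairs of groups, 13 were called. The block raised the count over all genes in each of these comparisons, and the counts without it are given below.

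With only the arrays compared, 0 of the 7 were called for PBAB minus HA in Th1 cultures, 2 in Th17 cultures and 0 for Th9 minus Th1 under PBAB. The mean of probe sets and repeated quantile normalization each gave 1 for PBAB minus HA in Th17 cultures. With arrays centred on the median, 0 were called for Th9 minus Th1, 1 for Th9 minus Th17 and 1 for Th17 minus Th1 under PBAB, and with no filter 1 and 1 for the last 2. Il9 was not called for Th9 minus Th17 under PBAB without the filter (-3.13), centred (-3.13) or with only the arrays compared (-3.13). The causes were not tested.

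Without 1 array, the count of the 7 called ranged from 0 to 2 for PBAB minus HA in Th1, 1 to 4 in Th9 and 0 to 1 in Th17 cultures. It was 1 to 4 for Th9 minus Th17 and 1 to 3 for Th17 minus Th1 under HA, and 0 to 1 for Th9 minus Th1, 0 to 3 for Th9 minus Th17 and 1 to 3 for Th17 minus Th1 under PBAB. Neighbouring pairs called ranged from 5 to 9. Il9 ranged from -0.51 to 2.47 for PBAB minus HA in Th9 cultures, -4.57 to -3.16 for Th9 minus Th17 and 3.93 to 5.33 for Th17 minus Th1 under HA, 0.25 to 3.23 for Th9 minus Th1 and -4.62 to -1.64 for Th9 minus Th17 under PBAB, and 0.40 to 1.39 for PBAB minus APC alone.

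Over all genes, the block gave 4056 calls against 2126 for PBAB minus HA in Th9, 4709 against 2648 in Th17 and 4380 against 2266 in Th1 cultures. In the differences between cultures it gave 739 against 212 for Th9 minus Th1, 1476 against 265 for Th9 minus Th17 and 1828 against 547 for Th17 minus Th1. Between lineages under HA it gave 1863 against 827, 1831 against 739 and 2373 against 1069, and under PBAB 861 against 334, 2351 against 987 and 2642 against 1083, for Th9 minus Th1, Th9 minus Th17 and Th17 minus Th1. With only the arrays compared there were 1279 for PBAB minus HA in Th9 cultures, 135 and 144 for its difference between Th9 and Th1 and between Th9 and Th17, 365, 310 and 556 for the same 3 lineage comparisons under HA, and 162 for Th9 minus Th1 under PBAB.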
